A study of Mus musculus with 12 samples.

Results

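The effect of 3 weeks of minoxidil on the gene expression of mouse back skin was read from 2 of the 12 DNA microarrays of the study, the pair that carried the 3% minoxidil (MXD) pool and the vehicle control (VC) pool of week 3 (3W) with exchanged dyes. They were taken by their titles. Male C57BL/6J mice of 8 weeks had the back shaved and then received 200 µL a day on the back of 3% MXD, of a 10% cell extract of the cactus Notocactus ottonis (N-CE), or of VC, a mixture of propylene glycol, ethanol and water in which no drug was given. RNA of whole back skin of 6 mice was pooled per group and week, so that MXD and VC at 3W are 1 pool each. On array 1 the VC pool was labelled with Cy3 and the MXD pool with Cy5, and on array 2 the dyes were exchanged. The SD given below is over these 2 arrays and holds the error of measurement only, without the spread between mice. No test between the groups is possible with 1 pool a side, and every result is a description of these pools. Each week has 4 arrays, and the slide format holds 4. The sample labels do not name the slide. If each week filled 1 slide, slide and week cannot be told apart. The N-CE arrays of 3W used the same VC pool, whereas week 1 (1W) and week 2 (2W) had VC pools of their own.

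Minoxidil is a vasodilator that opens ATP-sensitive potassium channels after it has been sulfated, and it is used on the skin to make hair grow. Hair follicles cycle through growth (anagen), regression and rest. In anagen the matrix cells divide and differentiate into the hair shaft, which is built of hair keratins embedded in keratin-associated proteins (KAPs). Melanocytes of the bulb make pigment for the shaft only during anagen. Mouse back skin also holds a sheet of skeletal muscle, the panniculus carnosus, so that whole skin RNA contains muscle transcripts.

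Few probes differed between MXD and VC at 3W. A probe counted as measured when it had an unmarked spot on both arrays and was well above background in at least 1 group on both. A measured probe was called when it differed the same way on both arrays, with a spot P below 0.01 on each, and the mean fold was above 1.5 or below 0.75. Of 24351 measured probes, 59 (0.242%) were called higher and 66 (0.271%) were called lower with MXD. They belong to 54 and 53 gene names. Counted by the brightest probe of each gene, 51 of 16478 genes (0.31%) were called higher and 50 (0.303%) lower, and these are the shares to set beside the gene counts below. The same shares of genes were 1.34% and 1.35% for MXD at 1W, 6.8% and 10.9% for MXD at 2W, and 0.233% and 0.239% for N-CE at 3W. The called folds ranged from 1.54 to 5.04 upward and from 0.684 down to 0.242. The median log2 ratio of MXD over VC was 0.00 over all measured genes. Between 59.7% and 62.3% of spots were well above background in a channel, none was saturated, and 204 and 211 spots were left out as outliers. The log2 ratios of the 2 arrays correlated with r = 0.26 over all probes above background in both groups, and with P below 0.01 on both arrays 127 probes had the same sign and 7 opposite signs. Skin markers such as Krt5, Krt14 and Col1a1 were well above background in both pools, and so were the muscle marker Ttn and the pigment cell markers Dct and Mlana.

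**Figure D1:**
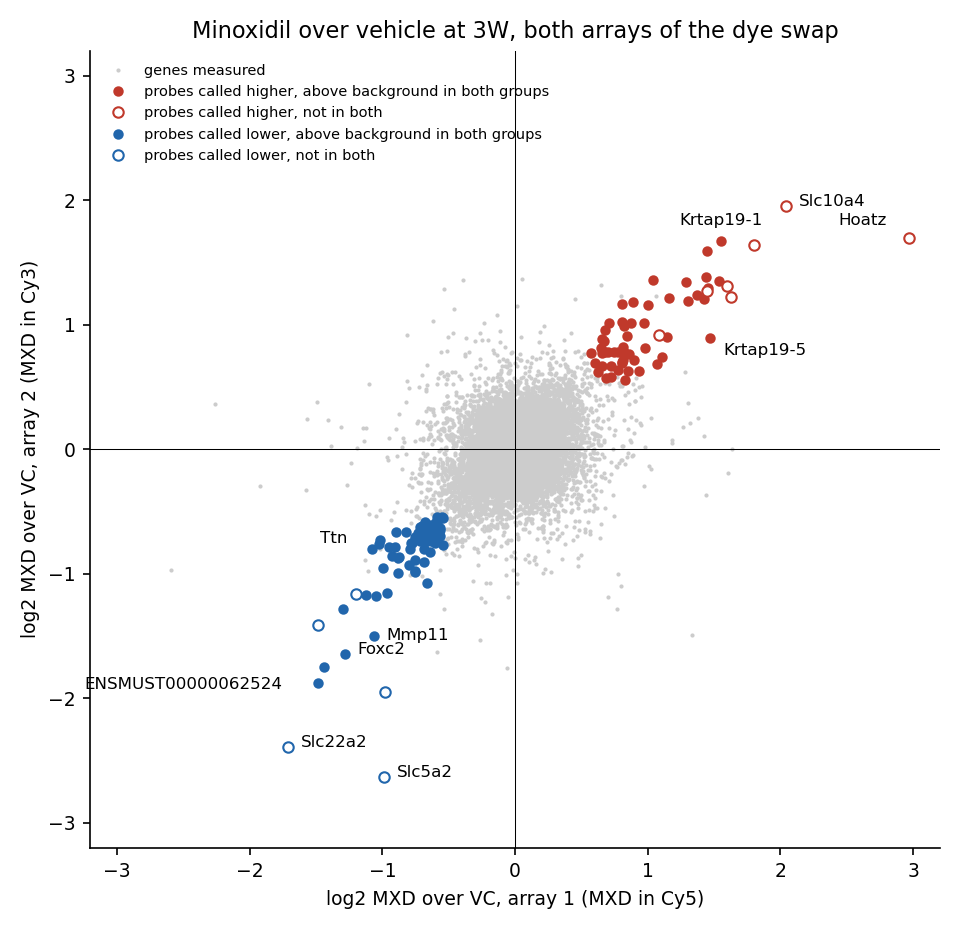
Log2 ratio of MXD over VC at 3W on array 1 (horizontal) and array 2 (vertical) for the measured genes in grey and the called probes in red (59 higher) and blue (66 lower). Open circles mark called probes that were not well above background in both groups on both arrays. Most genes lie in a cloud around 0, and the called probes lie along the diagonal beyond it.

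KAPs of the high glycine-tyrosine type were among the probes highest with MXD, and Krtap19-1 and Krtap19-4 gave the highest ratios among called genes that stood well above background in MXD and in VC. The brightest probe of Krtap19-1 (chr16:88869384-88869443, mm9) gave a processed signal of 40924 in VC and 105620 in MXD on array 1, and of 53316 in VC and 126040 in MXD on array 2. Its second probe gave 26361 in VC and 77354 in MXD on array 1, and 30679 in VC and 97653 in MXD on array 2. MXD was the higher pool in both dye orientations with both probes, as a call requires. The mean folds were 2.47 (log2 1.30 ± 0.09) and 3.06 (log2 1.61 ± 0.08). Krtap19-4 followed with 17126 against 46754 and 18206 against 54943 (log2 1.52 ± 0.10). Krtap19-2, which the array file lists under the older name Krtap16-1, gave log2 1.32 ± 0.15, Krtap16-3 1.25 ± 0.08, Krtap19-3 0.99 ± 0.03 and Krtap19-9b 0.80 ± 0.13. Krtap19-5, the dimmest of them, gave 1.47 on array 1 and 0.89 on array 2, so that its SD of 0.41 was the widest in this group.

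These genes are neighbours. In the KAP cluster of chromosome 16, which the array covers with 29 measured probes from chr16:88611474-89508568 (mm9), the 9 consecutive probes from Krtap19-1 to Krtap16-3 were all called higher. They lie within 93.6 kb (chr16:88869384-88962965), and their mean log2 ratios ranged from 0.73 to 1.61 with a median of 1.25. The lowest value belonged to a transcript known in the file only as ENSMUST00000062005, with 0.65 and 0.82 on the arrays. Of the other 20 probes of the cluster none was called higher, and their ratios ranged from -1.68 to 0.61 with a median of 0.20. The highest of them, 2310061N02Rik, gave 0.67 and 0.54, above the fold limit in the mean but without a call, and lies before the block. Krtap14 gave 0.45 and 0.50. Krtap15, the nearest measured gene before the block, gave 0.42 and 0.55, and Krtap22-2, the nearest one after it, gave 0.30 and 0.34. A single probe of the cluster was called lower, the transcript listed as ENSMUST00000062524, which lies 195.2 kb beyond the block. It gave 12352 in VC against 4416 in MXD on array 1 and 12502 against 3405 on array 2 (log2 -1.68 ± 0.28), the lowest value among called probes above background in both groups. ENSMUST00000079151, between it and the block, gave -0.46 and -0.84 and was not called.

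At the earlier weeks the calls covered most of the cluster. The 9 probes of the block had ratios of 1.35 to 1.80 at 1W and of 1.56 to 1.74 at 2W, and all 9 were called higher at both weeks. Of the other 20, 17 were called higher at 1W and 19 at 2W, with medians of 1.02 and 1.40. The block was also at the upper end of the cluster at these weeks. Its lowest ratio was reached by 2 of the other 20 probes at 1W (Gm10228 and Krtap6-5) and by 2 at 2W (2310061N02Rik and Gm10228). Its median exceeded that of the others by 0.48 at 1W and by 0.26 at 2W. For 3W the gap was 1.05, and 0 of the other probes reached the lowest ratio of the block. Since the block was chosen by its calls at 3W, both 3W values are largely fixed by that choice. They cannot be set beside those of the earlier weeks. ENSMUST00000062524 itself was 0.70 at 1W and 1.46 at 2W. With N-CE at 3W the 8 measured probes of the block lay between 0.09 and 0.30 and none was called, while the other 17 measured probes lay between -0.28 and 0.11 with a median of -0.05. The block was thus above its neighbours with N-CE as well, by 0.24 in the median, but N-CE shares the VC pool that entered the choice of the block. The probes of neighbouring KAPs resemble each other: the 2 most alike within the block, of Krtap19-1 and Krtap16-3, share 43 of 60 bases, and cross-hybridization within the family was not tested.

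**Figure D2:**
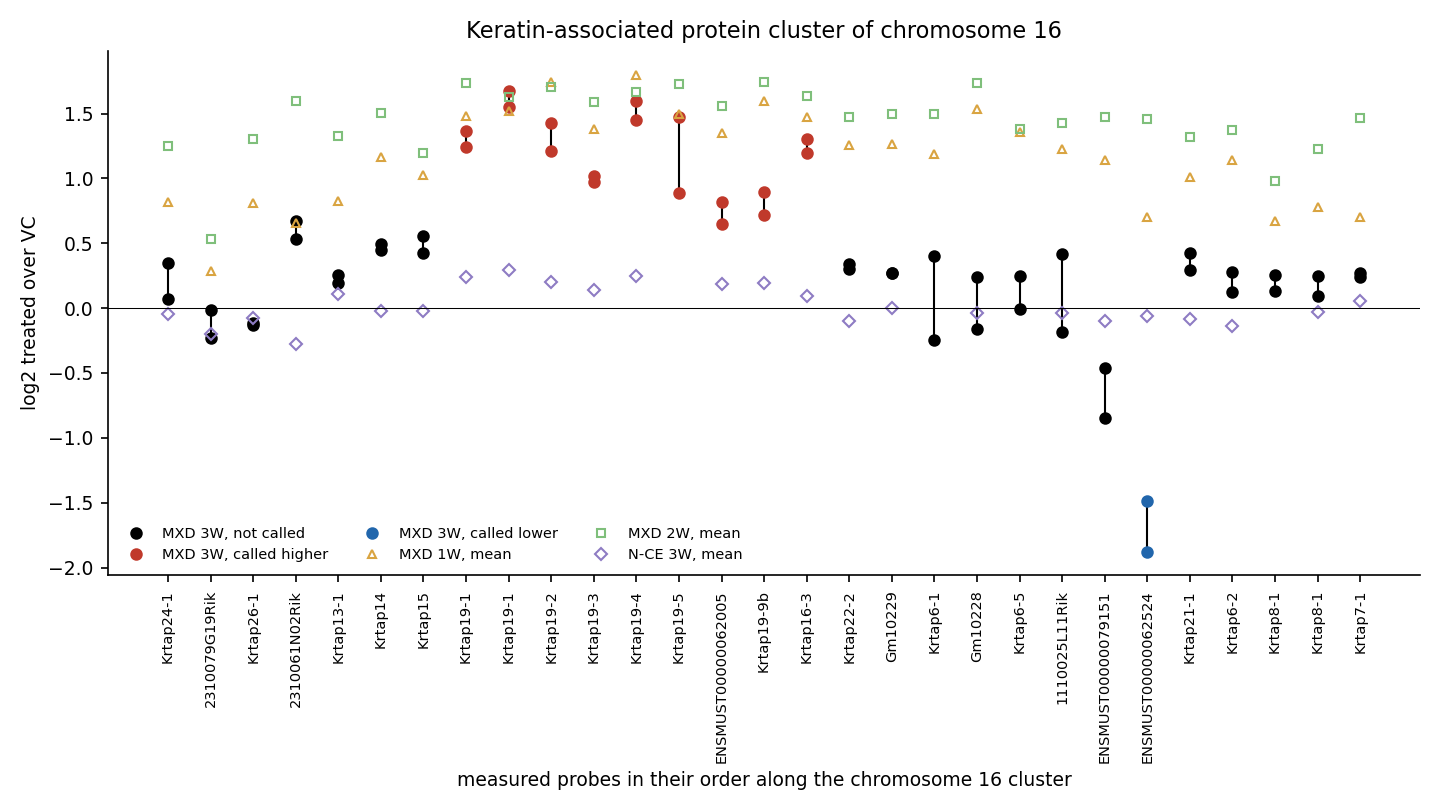
Log2 ratio of treated over VC for the 29 measured probes of the KAP cluster, in their order along chromosome 16. Pairs of filled circles are the 2 arrays of MXD at 3W (red called higher, blue called lower, black not called), and open symbols are the means of MXD at 1W, MXD at 2W and N-CE at 3W; the 9 red probes are consecutive, with means from 0.73 to 1.61.

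The start regions of the KAP genes are shown in 2 groups. They are split by a longer run around TATAA that was searched for among the called genes. Each window is from RefSeq promoters of GRCm38.p6, 5′ to 3′ on the strand of the gene, with the TATA motif in capitals. The 4 genes with the longer run GAGTATATAAGC were these.
Krtap19-1 (chr16:88869442-88869501, minus strand): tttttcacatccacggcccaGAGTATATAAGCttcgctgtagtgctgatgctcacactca
Krtap19-2 (chr16:88874306-88874365, minus strand): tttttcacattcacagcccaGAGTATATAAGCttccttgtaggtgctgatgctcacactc
Krtap19-3 (chr16:88878039-88878090, minus strand): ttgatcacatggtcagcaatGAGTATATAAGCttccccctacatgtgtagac
Krtap19-4 (chr16:88885108-88885167, minus strand): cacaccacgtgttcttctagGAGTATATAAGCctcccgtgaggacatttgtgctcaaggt
The other called genes with a promoter entry held TATAA without the longer motif.
Krtap19-5 (chr16:88896478-88896537, minus strand): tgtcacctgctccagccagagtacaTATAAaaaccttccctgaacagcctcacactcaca
Krtap19-9b (chr16:88932265-88932320, minus strand): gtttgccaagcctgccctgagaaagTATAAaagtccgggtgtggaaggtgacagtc
Krtap16-3 (chr16:88962874-88962928, minus strand): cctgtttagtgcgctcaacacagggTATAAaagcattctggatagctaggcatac
A gene of the same list that was not called is shown for comparison.
Krtap22-2 (chr16:89010760-89010819, minus strand): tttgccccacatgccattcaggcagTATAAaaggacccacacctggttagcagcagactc

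TATAA, searched on the strand of the gene in the 120 bases before the start, was present in all 7 called genes of this KAP list and in all 6 genes of the list that were not called and have an entry, against 8.53% of 32851 promoters. The letters TATAA therefore did not separate called from uncalled KAPs. GAGTATATAAGC is the longest run holding TATAA that at least 4 of the called genes share, so that its count of 4 among them is fixed by the choice. It was found in 0 of the 6 uncalled genes and in 5 promoters (0.0152%) in all. The 4 genes are relatives that lie side by side at the start of the block. A match of letters is not a binding site.

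As a list, 7 of 14 measured genes of high glycine-tyrosine KAPs were called higher and 0 lower, with a median log2 ratio of 0.58 (0.65 on array 1 and 0.57 on array 2). The same genes had medians of 1.37 at 1W and 1.54 at 2W, with 14 of 14 called higher at each week. With N-CE at 3W the median was 0.09 and 0 were called. The log2 signal of the shared VC pool on the MXD arrays minus that on the N-CE arrays had a median of -0.20 for this list and of 0.08 over all genes, and its part in the gap between the treatments was not tested. In whole skin, fewer cells of a type and less RNA per cell cannot be told apart, here and in every group below.

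The other structural genes of the hair shaft differed less. Of 12 hair shaft keratins 0 were called at 3W, although 11 were above VC on both arrays, with a median of 0.28. Krt85, a hair keratin of the matrix, gave 0.42 and 0.22, and Krt31 gave 0.27 and 0.20. At 2W all 12 were called higher with a median of 1.34. High sulphur KAPs had a median of 0.20 with 0 of 12 called. Ultrahigh sulphur KAPs, which fill the cuticle and cortex, split in direction: Krtap5-2 gave 4948 in VC against 10948 in MXD and 6047 against 11269 (log2 1.02 ± 0.18), and Krtap5-3 gave 524 against 968 and 338 against 767 (log2 1.04 ± 0.21). Krtap4-13 was called lower, with 27105 in VC against 14493 in MXD and 26564 against 15446 (log2 -0.84 ± 0.09), and had been at 1.06 at 2W. Inner root sheath keratins (median -0.08, 0 of 6 called) and the group of trichohyalin and the citrullinating Padi enzymes (median -0.09, 0 of 10 called) lay near VC.

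The list with the most calls upward was that of pigment genes. Of 21 measured genes of melanin synthesis and melanosomes, 9 were called higher and 0 lower. Dct, the dopachrome tautomerase that acts late in eumelanin synthesis, gave 11688 in VC against 20428 in MXD on array 1 and 13766 against 22347 on array 2 with its brighter probe (chr14:118412048-118412105, mm9). Its dimmer probe gave 4746 against 7203 and 5814 against 9391. MXD was above VC by a mean fold of 1.68 (log2 0.75 ± 0.08) and 1.57 (log2 0.65 ± 0.06) respectively. Tyrp1, the neighbouring enzyme of the pathway, gave 3337 against 5861 and 4006 against 7060 (log2 0.82 ± 0.00). Mlana, a melanosome protein used as a melanocyte marker, gave 2297 against 3679 and 2424 against 4172 (log2 0.73 ± 0.07). Pmel, which forms the fibrils on which melanin is laid down, gave 5104 against 8018 and 5801 against 9206 (log2 0.66 ± 0.01). The MXD signal was above the VC signal on both arrays for all 4 genes, as their calls require.

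The transporters and channels of the melanosome moved in the same range. Oca2, an anion channel of the melanosome membrane, was at 0.93 ± 0.26, Slc24a5, a cation exchanger, at 0.77 ± 0.16, and Slc45a2, which takes part in control of melanosome pH, at 0.65 ± 0.10. Trpm1, a channel of melanocytes, was at 0.74 ± 0.16 and Tspan10, a tetraspanin, at 0.90 ± 0.12. The call of Tspan10, whose VC signals were 74.4 and 98.9, ended with normexp background correction (0.50). The call of Slc45a2 ended on array 2 alone (0.58). Tyr, the first enzyme of the pathway, had signals of 27.7 in VC against 39.0 in MXD and 27.3 against 45.6 and was not called. Its mean of 0.62 is the middle value and therefore the median of the list. That median fell to 0.45 when only genes above background in both groups were kept and to 0.19 with normexp. The 9 called genes stayed between 0.50 and 0.82 with normexp. Genes that also serve vesicle transport in other cells, such as Rab27a, Rab38 and Myo5a, were not called. Apart from these and Tyr, the uncalled members were Gpr143 (0.67), Gpnmb (0.45), Mlph (0.28), Slc24a4 (0.21), Cited1 (0.20), Slc7a11 (0.06), Atp7a (0.04) and Qpct (0.01).

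The promoter windows of the called melanin genes are shown for a motif they share, CATGTG, the core of the M-box that melanocyte transcription factors of the Mitf family are known to read. Each is from RefSeq on GRCm38.p6, 5′ to 3′ on the strand of the gene, with the motif in capitals (CACATG where it lies on the opposite strand).
Dct (chr14:118052364-118052423, minus strand): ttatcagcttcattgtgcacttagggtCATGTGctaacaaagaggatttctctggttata
Tyrp1 (chr4:80834140-80834199, plus strand): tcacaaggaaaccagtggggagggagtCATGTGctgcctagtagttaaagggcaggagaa
Trpm1 (chr7:64153667-64153726, plus strand): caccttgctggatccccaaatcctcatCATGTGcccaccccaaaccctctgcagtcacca
Oca2 (chr7:56239546-56239605, plus strand): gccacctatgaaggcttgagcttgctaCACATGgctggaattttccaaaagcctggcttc
Slc24a5 (chr2:125068087-125068126, plus strand): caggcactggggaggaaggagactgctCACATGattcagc
Tspan10 (chr11:120442583-120442630, plus strand): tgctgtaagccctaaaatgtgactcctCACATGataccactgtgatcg

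CATGTG was found on either strand in 6 of the 6 called melanin genes that have a promoter entry (250 bases before to 50 after the start), against 14.2% of all 32851 promoters. Among melanin genes that were not called it was found in 3 of 9. The motif is not particular to pigment genes: 4 of 7 called and 5 of 6 uncalled high glycine-tyrosine KAPs held it too, and 0 of 5 called muscle genes did. Of the other motifs searched on both strands, CACGTG was found in 1 of the 6 (7.15% of all promoters), CAGCTG in 3 (16.3%) and CTTTGA in 1 (16%). Mlana, Pmel and Slc45a2 were not matched.

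The regulators of the melanocyte lineage gave no calls. Of the 14 measured 0 were called, and their median was 0.18. With 0.31% of all genes called higher and 0.303% lower, a list of this size would mostly hold no call. Mitf, the central transcription factor of melanocytes, was at -0.04 and -0.19 on the 2 arrays, and Sox10, which acts above it, at 0.43 and -0.11. Mc1r, the receptor for melanocortin, came closest to a call with 0.61 and 0.58. Kitl, the ligand of the Kit receptor made by neighbouring cells, was called with its dimmer probe, above background in VC on 1 of 2 arrays, while its brighter probe gave 0.50 and 0.51 and was not called. Schwann cells, which share markers with melanocytes, were near VC with a median of 0.05 and 0 of 12 genes called. Outside the lists, Syt4, a synaptotagmin, was called higher with both probes (0.95 ± 0.10 and 0.86 ± 0.22), and so was Fabp7, a fatty acid binding protein of glial cells (0.76 ± 0.02). The call of Fabp7 ended with normexp (0.49). At the other weeks the melanin list had medians of 0.49 (1W, 5 called higher) and 1.14 (2W, 14 called higher and 1 lower), and with N-CE at 3W of 0.34 (2 called higher).

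**Figure D3:**
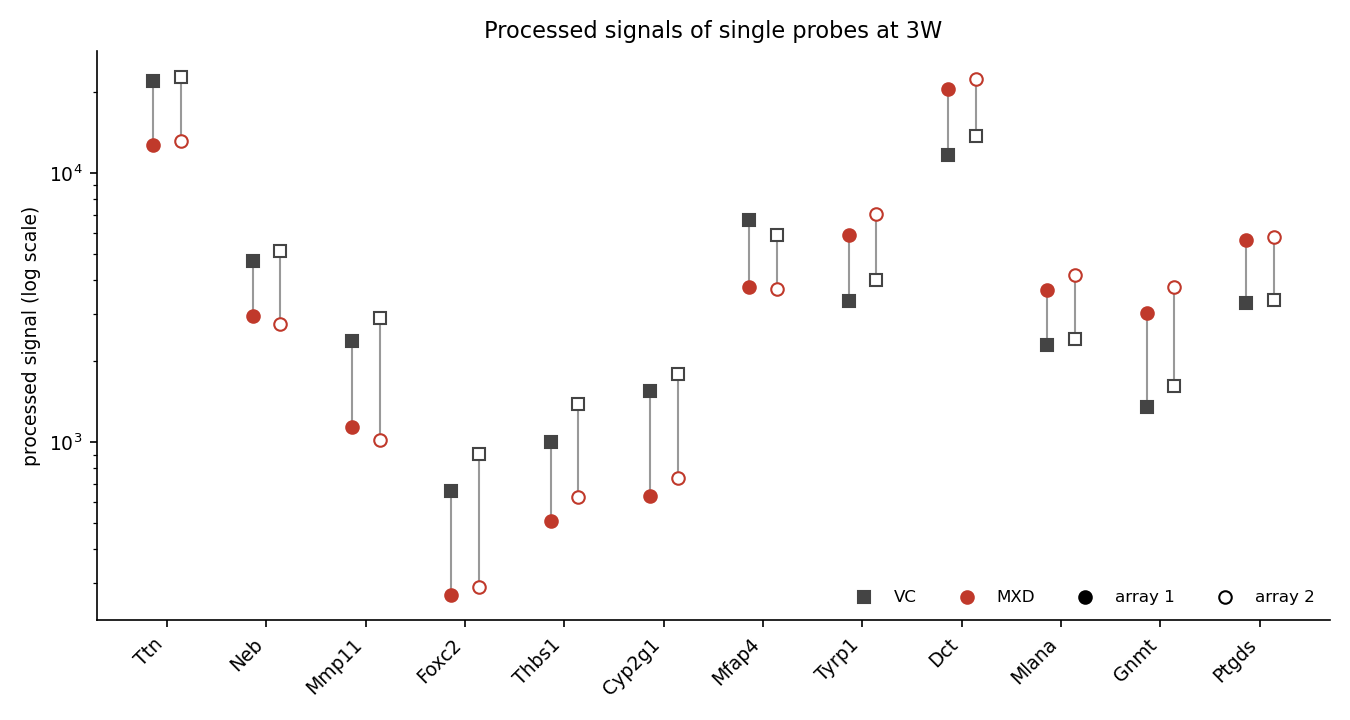
Processed signal of single probes in the VC pool (squares) and the MXD pool (circles) at 3W on a log axis, filled for array 1 and open for array 2. The pair of an array is joined by a line. All 12 genes were called, which requires the same order of the pools on both arrays. An example is Ttn, with 21948 against 12658 and 22779 against 13107.

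Genes of dividing cells were slightly above VC throughout, with no gene past the call. Of 46 measured genes of mitosis and DNA replication, 42 were above 0 on both arrays, against 4637 of all 16478 genes, and 0 were called. The mitosis list had a median of 0.39 (0.40 and 0.41 on the arrays) and the DNA replication list of 0.25 (0.25 and 0.30). Medians with N-CE at 3W were 0.31 and 0.27, against the same VC pool. At 2W the mitosis list was at 0.91 with 20 of 24 genes called higher. Among the called genes were a pair of histone genes of S phase, H2ac4 (0.71 ± 0.10) and H1f5 (0.77 ± 0.14), which with N-CE were at 0.83 and 0.67. The hair matrix regulators, among them Lef1, had a median of 0.13 with 0 of 23 called. Lef1, a transcription factor of the Wnt pathway in matrix and papilla, gave 1929 in VC against 2531 in MXD and 2207 against 2931 (log2 0.40 ± 0.01), short of the call. Dsg4, a cadherin of the hair shaft, was at -0.06 and 0.36, within the error of measurement.

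Transcripts of skeletal muscle were below VC as a group. Over 6 muscle lists with 105 measured genes, 8 were called lower and 0 higher, 95 were below 0 on both arrays against 4581 of all 16478 genes, and the median was -0.39. All 28 genes of giant and scaffold proteins of the sarcomere and all 13 fast isoforms were below 0 on both arrays, with medians of -0.46 and -0.44. Ttn, the spring that spans the sarcomere from Z disc to M line, gave 21948 in VC against 12658 in MXD on array 1 and 22779 against 13107 on array 2 with its brightest probe (chr2:76542548-76542607, mm9). The mean fold was 0.576 (log2 -0.80 ± 0.00). Of 9 measured Ttn probes 7 were called lower, from -0.63 to -0.82. Neb, the ruler of the thin filament, was at -0.80 ± 0.16 and Cmya5, a protein of the costamere, at -0.63 ± 0.02. These were the lowest probes of both genes. Of 5 measured Neb probes 1 was called (median -0.48), and of 3 Cmya5 probes 1 was called (median -0.57).

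Other called members of the lists spanned several parts of the fibre. The myosin heavy chains of fast fibres, Myh2 and Myh1, were at -0.70 ± 0.00 and -0.57 ± 0.01, and Myh4 at -0.34 ± 0.12 without a call. Of 4 measured Myh2 probes 3 were called, and of 2 Myh1 probes 1 was called. Mybpc1, a slow myosin binding protein, was at -0.57 ± 0.03. Srl, which binds calcium in the sarcoplasmic reticulum, was at -0.55 ± 0.01. Acta1, the actin of skeletal muscle (-0.41 ± 0.17), and Ckm, its creatine kinase (-0.43 ± 0.07), were not called. Called lower outside the lists were Synpo2l (-0.63) and Myo18b (-0.64), which are also genes of striated muscle. Myom1 (-0.60) and Klhl31 (-0.67) were called with a dimmer probe, and their brightest probes were at -0.52 and -0.47 without a call. Smooth muscle lay near VC, with a median of 0.06 and 0 of 14 genes called.

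At the other weeks the median of the muscle genes was -0.55 at 1W, with 42 called lower and 7 higher, and -1.36 at 2W, with 90 called lower and 2 higher. The lists were not alike at 1W. Genes of regeneration, denervation and atrophy had a median of 0.00 with 4 of 16 called higher and 1 lower, and calcium handling had 2 called higher and 8 lower. Myh2, at 0.79, was the only fast isoform called higher at 1W. With N-CE at 3W, against the same VC pool, the median was -0.34, and for the brightest Ttn probe it was -0.34. The other 6 called Ttn probes were at -0.25 to 0.41 with N-CE. How much muscle each pool contained was not measured, and its part in these ratios was not tested.

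The list of collagens and dermal matrix had a median of -0.07 with 0 of 19 called, and Col3a1 was at -0.38 ± 0.11. Single genes outside it were called lower, and those given here were named for their place among the lowest called probes or after their values were seen, so that they form no counted group. Mmp11, a stromelysin made by stromal cells, gave 2387 in VC against 1143 in MXD and 2891 against 1024 (log2 -1.28 ± 0.31), and was at -0.14 with N-CE. Thbs1, thrombospondin, gave 1000 against 512 and 1389 against 626 (log2 -1.06 ± 0.13; N-CE -0.43). Of 3 measured Thbs1 probes 1 was called, and the 3 ranged from -1.06 to -0.66 (with N-CE from -0.43 to 0.13). Foxc2, a transcription factor of mesenchyme and lymphatic vessels, gave 661 against 272 and 903 against 290 (log2 -1.46 ± 0.25; N-CE -0.11). VC was the higher pool in both orientations for these genes, as their calls require. Smaller decreases were called for Mfap4 (-0.74 ± 0.11), a microfibril protein, and Timp4 (-0.74 ± 0.08), an inhibitor of metalloproteinases. Spon2 (-0.66 ± 0.06, 1 of 2 probes), Smoc1 (-0.65 ± 0.08) and Mamdc2 (-0.77 ± 0.02) were called lower too. With N-CE these 5 were at -0.27, -0.10, 0.04, -0.09 and -0.42. Cthrc1, a collagen-associated protein of wounds, was at -0.63 ± 0.03, close to its value with N-CE (-0.65).

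Over 7 immune lists with 90 genes, 1 was called higher and 1 lower, with a median of -0.04. The list member called lower was Ccl5, given below. Some genes of immune cells outside the lists, named after their values were seen, were called lower too. Jchain, which joins immunoglobulin polymers, gave 126 in VC against 59.7 in MXD and 125 against 72.1 (log2 -0.94 ± 0.20). The other Jchain probe was at -0.78 without a call. Of 4 probes of an immunoglobulin heavy chain listed as Igh-VJ558, 3 were called lower (-0.73 to -0.87). These probes may detect related gene segments. Ccl5, a chemokine of T and NK cells, was called with both probes (-0.73 ± 0.03 and -0.86 ± 0.12). The receptors Clec4d (-0.89 ± 0.05) and Lair1 (-0.89 ± 0.18, 1 of 2 probes) were called outside the lists. Lair1 lost its call with normexp (-0.41). With N-CE the values were -0.98 for Jchain, -0.84 and -0.79 for Ccl5, -0.72 for Clec4d and -0.62 for Lair1. Since the VC pool is common to both treatments, the part of that pool in these values cannot be told apart. Iglv1, a light chain segment, differed, with -1.11 ± 0.09 against 0.40 with N-CE.

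The single immune list member called higher was Stfa2, a stefin that inhibits cysteine proteases of neutrophils and keratinocytes, with 38.5 in VC against 106 in MXD and 47.1 against 116 (log2 1.38 ± 0.11). Its relative Stfa2l1 gave 136 against 396 and 153 against 391 (log2 1.45 ± 0.13). At 1W they were at 3.05 and 3.27, and with N-CE at 0.33 and 0.15. The call of Stfa2 ended with normexp (0.48). The neutrophil and acute phase list as a whole had a median of 1.87 at 1W and lay near 0 at 3W, with 1 of 10 genes called.

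Enzymes of metabolism were called in both directions. Gnmt, which uses S-adenosylmethionine to methylate glycine, gave 1354 in VC against 3029 in MXD and 1624 against 3763 (log2 1.19 ± 0.04; N-CE 0.74). Ptgds, the synthase of prostaglandin D2, gave 3295 against 5650 and 3365 against 5781 (log2 0.78 ± 0.00; N-CE 0.47), and was the single call among 12 genes of prostaglandin synthesis and receptors. The selenium-binding proteins Selenbp1 and Selenbp2 were at 0.80 ± 0.03 and 0.81 ± 0.07, and their sequences are close enough that the probes may share signal. Of the retinoid pathway, Aldh1a3, which makes retinoic acid, was at 0.88 ± 0.05 and Lrat, which stores retinol as ester, at 0.71 ± 0.08 and 0.62 ± 0.00 with its 2 probes. The other Aldh1a3 probe was at 0.62 without a call. The steroid enzymes Sult1e1 (0.75 ± 0.08) and Akr1c21 (0.98 ± 0.26) were higher too. With normexp the calls of Aldh1a3 (0.56), Lrat (0.31 and 0.49), Sult1e1 (0.53) and Akr1c21 (0.50) ended. In the other direction, Cyp2g1, a cytochrome P450, gave 1550 in VC against 631 in MXD and 1791 against 737 (log2 -1.29 ± 0.01; N-CE 0.01), and was equally low at 2W (-1.25). The other Cyp2g1 probe was at -1.18 at 3W without a call.

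The remaining probes with the largest ratios were of dimmer genes. Grp, gastrin-releasing peptide, was at 1.41 ± 0.04, Spink6, an inhibitor of kallikreins of the skin, at 1.32 ± 0.04, and Jakmip2 at 1.20 ± 0.23, with N-CE values of 0.45, 0.32 and 0.42. The calls of Grp (0.45) and Spink6 (0.50) ended with normexp. Slc12a1, a chloride cotransporter, was at -1.60 ± 0.22, Upk3bl, an uroplakin relative, at -1.15 ± 0.03, Amtn, a protein of the enamel surface, at -0.97 ± 0.03 and Tceal3 at -0.94 ± 0.08. With N-CE these 4 were at -0.15, 0.00, -0.15 and -0.25. Slc15a2, a peptide transporter, was called lower with a probe at -0.87 ± 0.20, which was at -2.32 with N-CE, while its other probe was at -0.25 with MXD and -0.41 with N-CE. Shfl, an antiviral factor, was called higher with a probe at 0.82 ± 0.20, while its other probe was at -0.13.

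For a few genes one pool was not well above background on either array, and the ratio is given as a bound. On each array the dim pool was set to the probe's own normalized signal or to the dimmest signal that still counted as above background, whichever was higher. Slc10a4, a carrier of synaptic vesicles, was at least 1.55-fold higher with MXD, Hoatz, a gene of cilia, at least 1.34-fold, Dppa3, known from germ cells, at least 1.25-fold, and Nrg1, a ligand of ErbB receptors, at least 1.22-fold. The other Nrg1 probe was at log2 0.63 without a call. Caln1 was at least 1.31-fold and Htra4 at least 1.20-fold lower. With normexp the calls of Hoatz, Dppa3, Nrg1, Caln1 and Htra4 ended. Slc22a2, Dhrs2, Olfr692, Esm1, Slc5a2 and the dimmer Kitl probe were above background in the dim pool on 1 of 2 arrays.

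Pathways that govern the follicle and that minoxidil acts on gave no calls, and at the shares over all genes few or none would fall in them. Of 70 measured genes of the Wnt, hedgehog, BMP, and FGF and IGF pathways, 0 were called and the median was 0.00. Of 9 genes of minoxidil targets, the subunits of ATP-sensitive potassium channels, adenosine receptors and the activating sulfotransferase, 0 were called with a median of -0.07. The lists of dermal papilla genes (0.15), follicle stem cell genes (-0.08), angiogenesis ligands (-0.06), endothelium (0.00), adipocytes (-0.09) and epidermal differentiation (-0.15) had 0 called as well. In all, 37 of 48 gene lists had no called gene, and their medians ranged from -0.34 to 0.39. Over all genes 0.31% were called higher and 0.303% lower. At these shares most lists of such size would hold no call, so nothing is read from its absence.

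**Figure D4:**
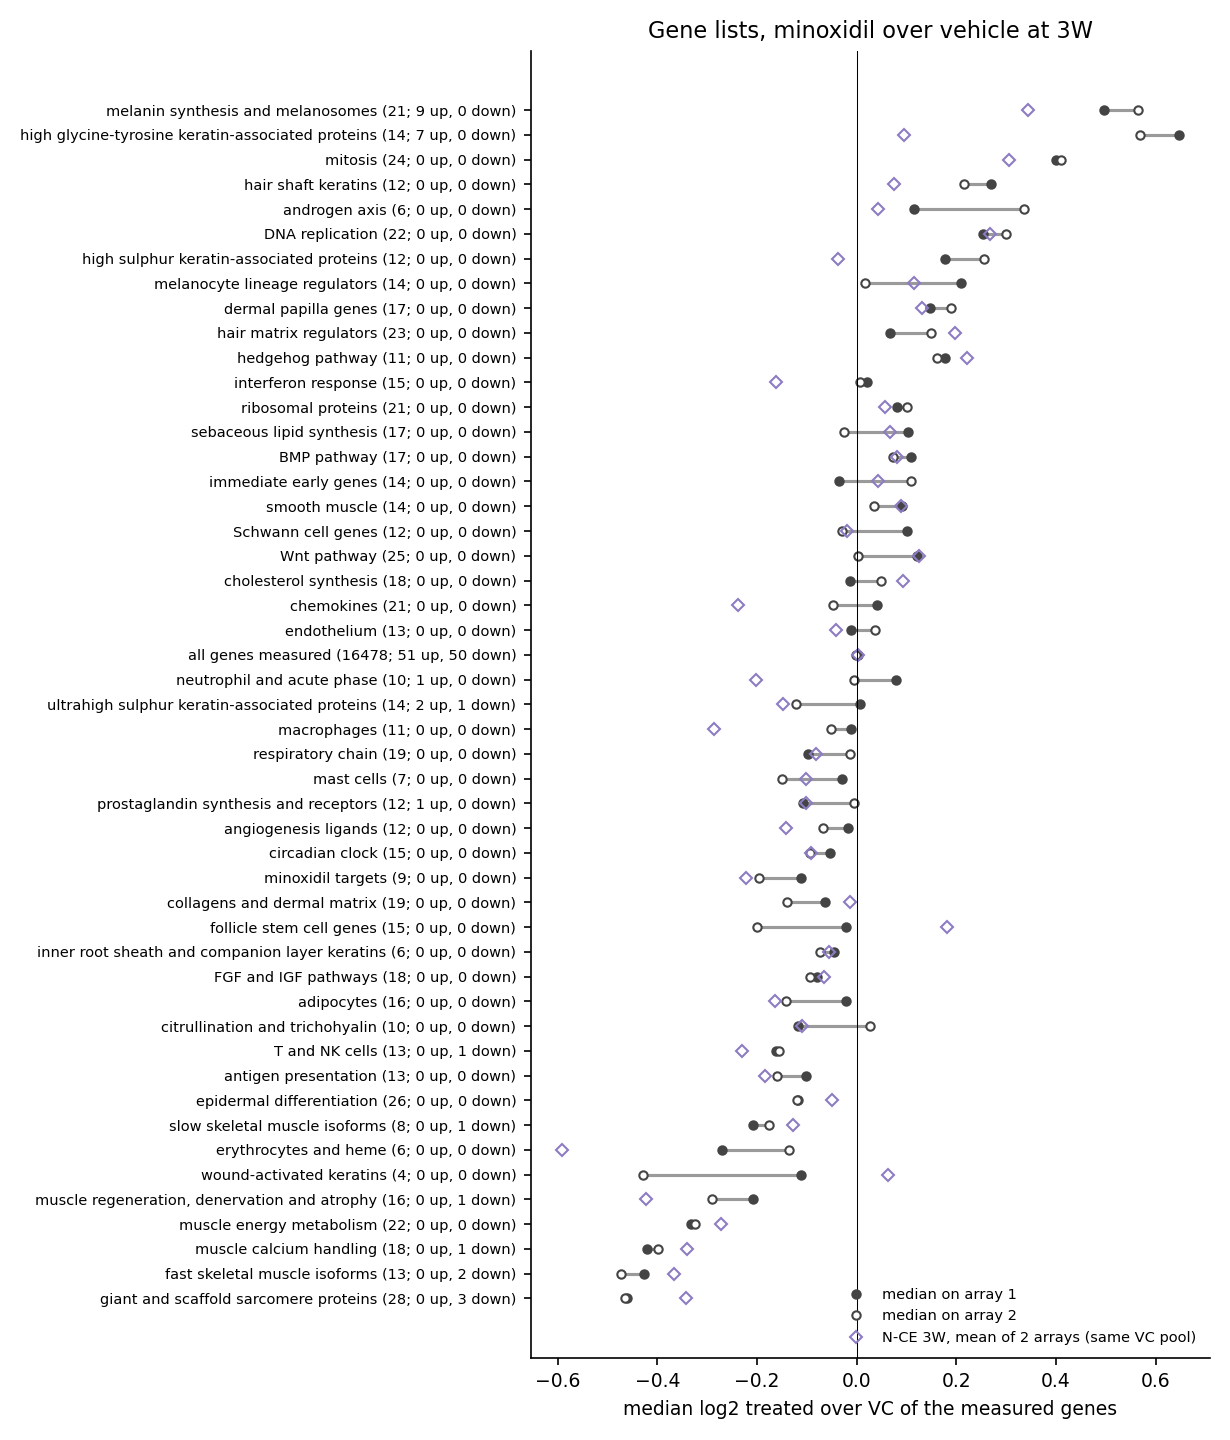
Median log2 ratio of treated over VC for each gene list at 3W, with the number of measured genes and of calls beside its name. Circles are the 2 MXD arrays and diamonds the N-CE mean against the same VC pool; melanin genes and high glycine-tyrosine KAPs are at the top (0.62 and 0.58 over the dye-swap means) and sarcomere proteins at the bottom (-0.46).

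The week 3 pattern was set beside the earlier weeks, each of which has its own VC pool. At 3W 125 probes were called, against 596 after 1 week and 4058 after 2 weeks. Of the 59 probes higher at 3W, 21 (35.6%) were called higher at 1W, where 1.07% of measured probes were, and 44 (74.6%) at 2W, where 6.39% were. These are 7.47% and 2.65% of the probes called higher at those weeks. Of the 66 lower probes, 11 (16.7%) were called lower at 1W, where 1.2% were, and 35 (53.0%) at 2W, where 9.23% were. At 1W 9 of the 66 were called in the opposite direction. The 59 probes had a median ratio of 0.88 at 3W and 1.26 at 2W. The 66 had one of -0.76 at 3W and -0.82 at 2W. The ratios of 3W correlated over 23370 probes with r = 0.26 with 1W and r = 0.39 with 2W, across probes that share the platform and are not independent.

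Between the treatments at 3W, MXD over N-CE was taken as the difference of their ratios to VC, so that the VC pool cancels apart from its measurement on separate arrays. Of the 59 probes higher with MXD, 58 were measured with N-CE and 25 exceeded it by more than the fold limit on the mean with the same sign on both arrays. Of the 66 lower ones 65 were measured and 39 lay below N-CE in this way. Over all 24169 probes measured in both, 1.07% and 3.23% did. The called probes were chosen for extreme ratios of MXD over VC, which enter this difference, so nothing is read from the excess. Krtap19-1 (1.31 and 1.06) and Cyp2g1 (-1.30) were among them, while Dct (0.15 and 0.12), Mlana (0.10) and Pmel (0.16) were not. The difference between the treatments has no test either.

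**Figure D5:**
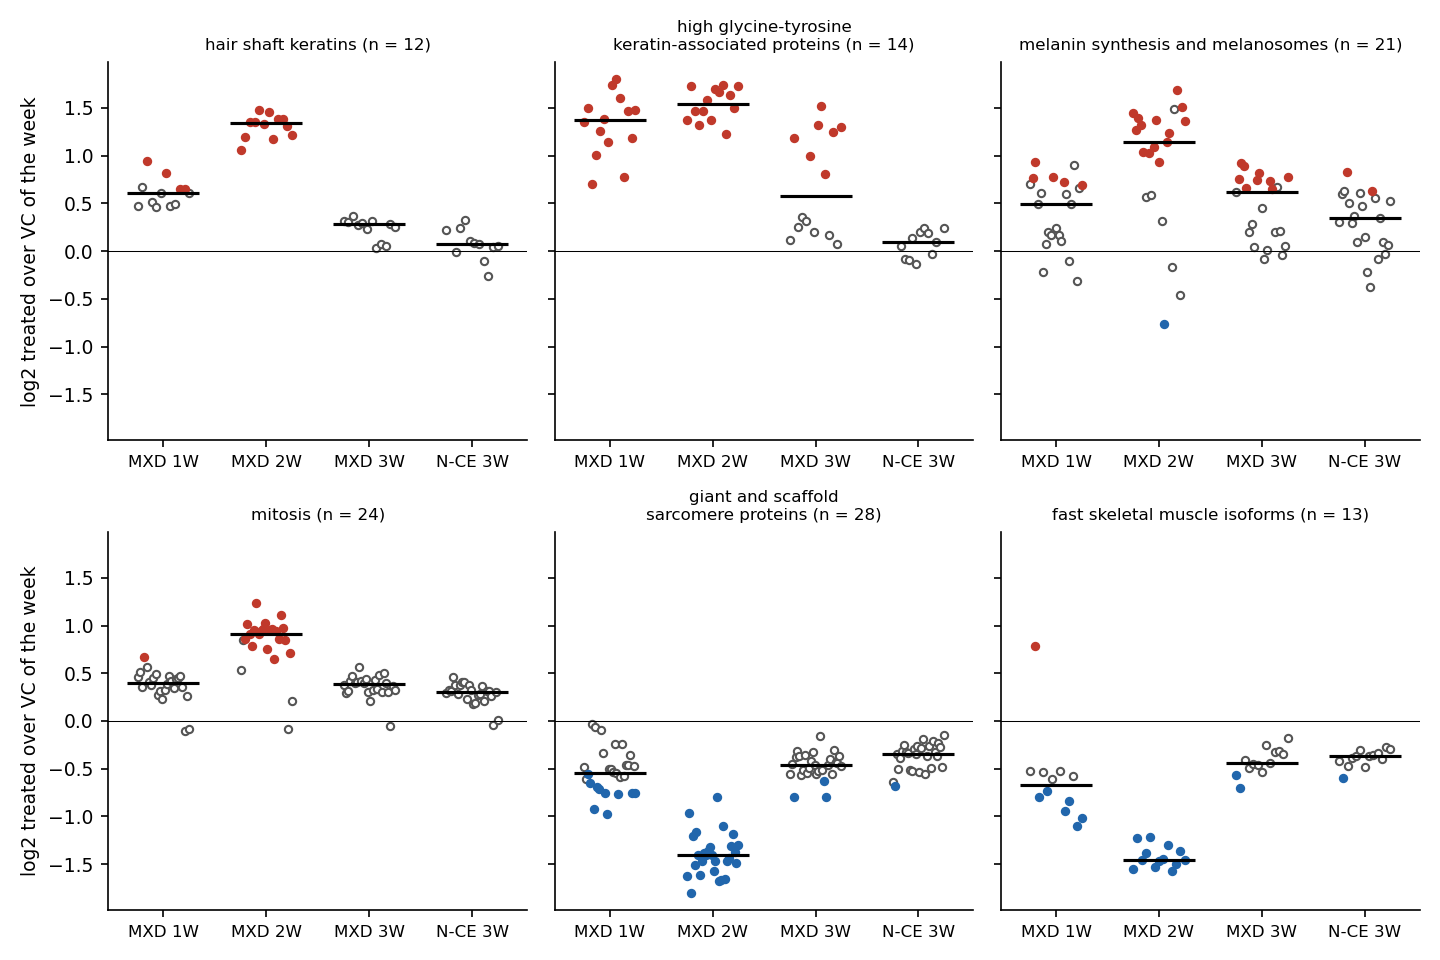
Log2 ratio of treated over VC for each measured gene of 6 lists, for the MXD pools of 3 weeks and the N-CE pool of week 3. Each circle is a gene (red called higher, blue called lower, open not called) and the bar is the median; at 3W the high glycine-tyrosine KAPs fall into 7 genes called higher and 7 not called, whereas all 14 were called at 1W and 2W.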

How the data were processed

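Total RNA of back skin of 6 mice was pooled per group and hybridized to Agilent whole mouse genome arrays with 2 dyes. The authors deposited Feature Extraction output (version 11.0.1.1 per the labels, 12.0.3.1 per the file headers). Among the columns the authors deposited, the processed intensity of a channel has the background subtracted and the dyes normalized. The deposited log10 ratio is Cy5 over Cy3, and the deposited p-value is that of a spot under the software's error model, which knows nothing of mice.

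Log2 ratios were computed from processed signals, turned by the dyes in the labels to MXD over VC, with control and outlier spots left out. Spots of a probe were averaged first and the 2 arrays next. Probe positions are on mm9. Symbols come from RefSeq accessions for 27816 of 41174 probes, otherwise from the file. Where a gene had several probes, the brightest over the 12 arrays stood for it. Genes named were the 12 highest and the 12 lowest called probes above background in both groups, called list members, up to 5 bounds each way, the markers, Lef1 and Dsg4, and others chosen after their values were seen. Gene lists and members were chosen with earlier results of these data known. In data simulated for MXD over VC at 3W, 173 of 200 changed probes among 24351 were called in the right direction and 3 unchanged ones were called. The simulated noise was drawn from the software's own spot error, independently for each array. Neither count therefore gives a rate for the real arrays. The 173 of 200 is no sensitivity of the calls, and the 3 is no false call rate. Alternatives covered the P criterion, fold limits, normexp (offset 50) with loess, the deposited ratios, centring, filters, probe choice and each array alone. Python 3.11.15, pandas 2.3.3, R 4.3.3 and limma 3.58.1 were used. The number of arrays limits the precision.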

Additional observations from a re-analysis of the deposited data

Results flagged for a closer look

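Several probes called at 3W were called in the opposite direction at another week of MXD. The difference between the weeks was not tested, as each week is 1 pool a side with its own VC pool, and possibly on its own slide. Lower at 3W and higher at 1W were Upk3bl (-1.15 at 3W, 0.90 at 1W), Iglv1 (-1.11 and 1.33), Clec4d (-0.89 and 2.13), the amino acid transporter Slc38a5 (-0.86 and 0.94), the protease inhibitor Slpi (-0.78 and 0.96), the imprinted gene Mest (-0.77 and 1.86), 2 probes of Myh2 (-0.70 and 0.79, and -0.68 and 0.76) and Cthrc1 (-0.63 and 1.03). Akr1c21 was higher at 3W (0.98) and lower at 1W (-0.78).

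Against 2W, the probes lower at 3W and higher at 2W were ENSMUST00000062524 of the KAP cluster (-1.68 at 3W, 1.46 at 2W), Upk3bl (-1.15 and 1.08), Tceal3 (-0.94 and 0.64), the anion exchanger Slc26a4 (-0.87 and 0.87), Krtap4-13 (-0.84 and 1.06) and Pacsin1 (-0.68 and 1.1). Sult1e1 (0.75 at 3W, -0.94 at 2W) and Mucl1 (0.78 and -1.96) were higher at 3W and lower at 2W. All values are log2 ratios of MXD over the VC pool of the same week.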

How the results depend on the processing

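The counts of called probes at 3W, 59 higher and 66 lower, depended most on the spot P and on the fold. Without the P, 134 were higher and 528 lower by the mean fold, and 65 and 245 with the fold passed on each array. With a limit of 2-fold, 22 and 13 were called. Normexp background correction with loess gave 36 higher and 61 lower and ended the calls of 28 single probes, and the cause was not tested. On 1 array alone the counts ranged from 122 to 153 higher and from 180 to 210 lower, since the P then had to pass on 1 array. Without array 1 the calls of Prr5l, Scube1 and Slc45a2 ended, and without array 2 that of Gja5. Under the other settings run (symmetric fold, deposited ratios, series matrix values, centring, filters, outlier spots kept, genes in place of probes, arithmetic means) the counts were 51 to 60 higher and 50 to 66 lower. No called probe changed direction under the settings run, which for each array alone is fixed by the rule of the call. Of 48 list medians, 47 kept their sign with normexp, 46 with the mean over the probes of a gene, 44 without array 1 and 43 without array 2. The median of the melanin list went from 0.62 to 0.19 with normexp, while its 9 called genes stayed between 0.50 (Tspan10) and 0.82 (Oca2). No paired analysis was possible because no result comes from a test between samples, and the array numbers mark dye orientation. The number of pools limits every result: the ratios describe 1 pool a side and leave out the spread between mice. Dim probes carry the least certain ratios.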
